A study of Mus musculus with 8 samples.

Results

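The E2F family is the set of 8 genes E2f1 to E2f8, taken as the rows of those symbols among the 22059 genes listed for each of 8 whole-liver samples of FVB/NJ mice, an inbred strain labelled FVB. The labels name no transgene or treatment for any of them, and there were 2 samples at each of 4 stages: embryonic day 18 (E18), postnatal days 14 and 28 (P14, P28) and adult at 3 months. RNA-seq of poly(A)-selected RNA measured steady-state mRNA, and the comparisons follow the family from a fetal liver that still makes blood to a mature organ of mostly resting hepatocytes. All 8 members passed the filter on low counts that left 17081 genes to test, and were split by textbook role into 3 activators (E2f1 to E2f3), 3 canonical repressors (E2f4 to E2f6) and 2 atypical repressors (E2f7 and E2f8).

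E2F proteins 1 to 6 bind the promoters of cell-cycle genes as dimers with a DP partner. In resting cells the pocket proteins Rb1, p107 (Rbl1) and p130 (Rbl2) hold them in check, and cyclin-dependent kinases release them at entry into S phase, when the activators switch on genes for DNA replication. E2F4 and E2F5 work chiefly with pocket proteins as repressors, and E2F6 represses in a Polycomb-type complex without them. E2F7 and E2F8 bind DNA without a DP partner, repress targets of the activators, and are known in liver for promoting polyploid hepatocytes by lowering genes of cytokinesis, an action that E2F1 opposes. E2F2 and E2F4 are also known for roles in red cell formation.

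Levels of different genes are given in RPKM (read counts that the authors divided by transcript length and by the mapped reads of the library), since only a value per length can be set side by side between genes. Changes of a single gene are given as log2 fold changes from edgeR, with the standard error (SE) and an adjusted p, on counts scaled by TMM, in which a gene counted as called at an adjusted p below 0.1. Both scales are relative within a library and they differ at E18, where the TMM factors were 1.598 and 1.539 against 0.847 to 0.888 at the later stages. From E18 to adult the median change of all genes was -0.11 after TMM and -0.95 with library size alone. Reads on genes were between 68154675 and 106055723 a library, and the counting error of a member's count was at most 12.5%, for E2f7 at P28. The samples are described as biological duplicates. The smallest p that exact permutation of 2 samples against 2 allows is 0.333, and single genes were therefore tested in the model fitted across all genes.

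Promoter windows from RefSeq on GRCm38.p6, running 250 bases upstream to 50 downstream of an annotated start, matched 6 of the 8 members, with none for E2f4 and E2f5. They are shown because several E2F genes are themselves textbook E2F targets. The letters searched were those of the E2F site, TTTCCCGC, TTTCGCGC, TTTGCCGC and TTTGGCGC (8 bases), and the 7 bases that remain of each without its first T, on both strands, so that every 8-base match also holds a 7-base match. Capitals mark the matches in the stretches from 230 bases upstream to 30 bases downstream of the start of E2f7 (chr10:110745209-110745468, plus strand), E2f8 (chr7:48881567-48881826, minus strand) and E2f3 (chr13:29986034-29986293, minus strand), and in a 30-base stretch of E2f2 (chr4:136172294-136172323, plus strand).

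E2f7: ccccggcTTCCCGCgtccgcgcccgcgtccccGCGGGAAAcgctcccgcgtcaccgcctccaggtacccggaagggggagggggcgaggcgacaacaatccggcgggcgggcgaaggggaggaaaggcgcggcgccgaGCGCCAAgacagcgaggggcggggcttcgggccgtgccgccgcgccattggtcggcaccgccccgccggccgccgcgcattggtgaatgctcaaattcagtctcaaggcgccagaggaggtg
E2f8: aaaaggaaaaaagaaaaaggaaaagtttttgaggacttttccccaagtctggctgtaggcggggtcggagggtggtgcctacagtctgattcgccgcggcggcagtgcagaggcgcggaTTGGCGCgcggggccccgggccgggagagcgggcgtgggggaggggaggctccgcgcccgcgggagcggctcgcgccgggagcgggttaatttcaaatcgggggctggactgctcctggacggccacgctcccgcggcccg
E2f3: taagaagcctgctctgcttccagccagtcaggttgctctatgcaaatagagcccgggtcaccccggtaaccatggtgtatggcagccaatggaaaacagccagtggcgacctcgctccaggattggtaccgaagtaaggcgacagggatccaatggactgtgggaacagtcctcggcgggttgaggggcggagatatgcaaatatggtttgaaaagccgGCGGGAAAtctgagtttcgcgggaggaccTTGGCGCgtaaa
E2f2: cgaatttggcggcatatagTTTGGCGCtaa

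E2f7 held 3 matches, at 223, 198 and 92 bases upstream of the start, and the match at 198 was of 8 bases. E2f8 held 1 match of 7 bases, 111 bases upstream. E2f3 held an 8-base match 11 bases upstream and a 7-base match 18 bases downstream. E2f2 held an 8-base match whose 7-base end began 40 bases downstream, and its RefSeq start lies 120 bases upstream of the GENCODE start. The E2f6 window held no match, and the E2f1 window lay inside an exon, 466 bases within the gene, so it was not read as a promoter. Further windows at a second annotated start of E2f2 and of E2f3 held no match either. In all, 4 of the 8 windows of these 6 genes (50%) held a 7-base match, or 4 of 7 (57.1%) without the E2f1 window, against 9.57% of all 32851 windows and 25 of 35 windows (71.4%) of a list of E2F target genes. For the 8 bases the shares were 37.5% (42.9% without E2f1), 2.26% and 45.7%. A match in letters is a description and not a bound site.

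The family was highest at E18 and low at every later stage. Summed over the 8 genes, the RPKM was 434 and 543 in the E18 samples, 42.2 and 37.1 (P14), 34.9 and 32.2 (P28) and 33.4 and 40.6 (adult). From E18 to adult, 7 of the 8 members fell and E2f5 was not called, and 6 of the 7 fell over 3-fold (edgeR). The 6 became 4 without adult replicate 1, where E2f3 (-1.46) and E2f8 (-1.41) were under 3-fold, and 5 when any P14 or P28 library was left out, where E2f3 was -1.58. Among all genes tested, 43.8% were called lower and 39.5% higher, and 23.8% were lower and 16.8% higher with a change over 3-fold as well. The median log2 fold change was -2.35 over the members, beside -0.11 over all genes tested.

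**Figure D1:**
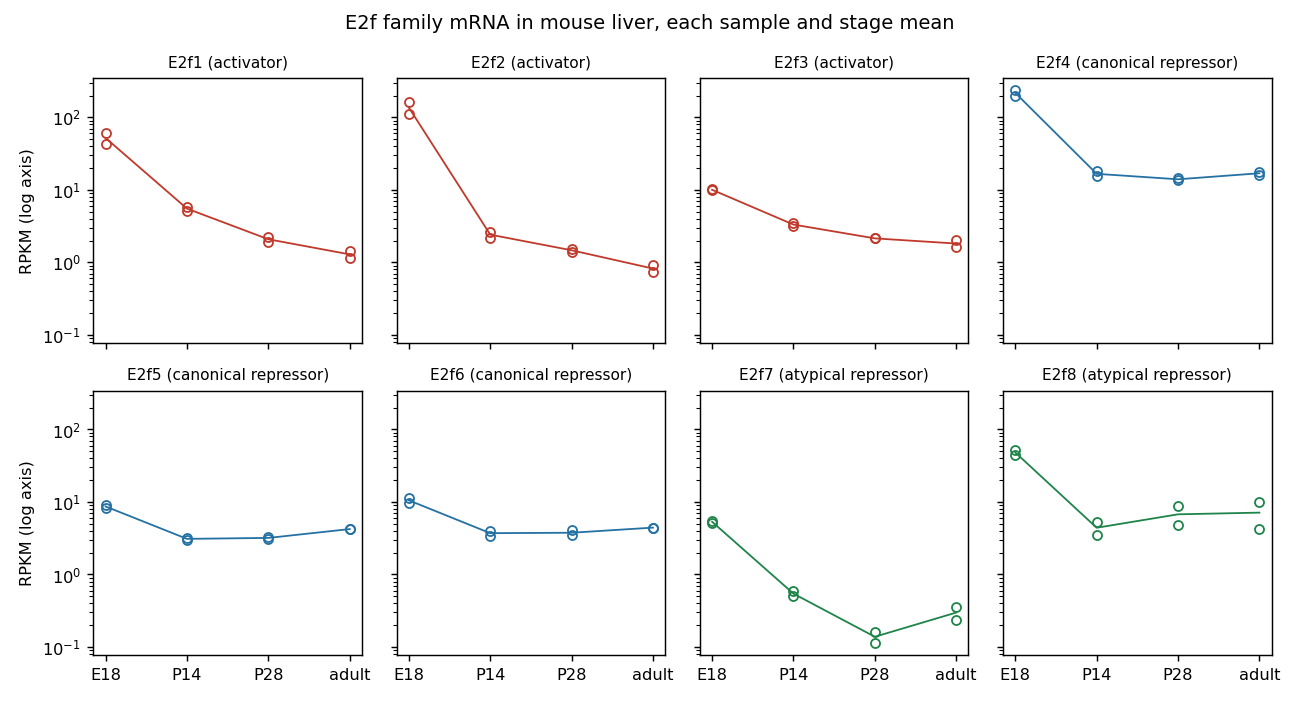
RPKM of each E2f gene (log axis) in each of the 8 liver samples (circles, 2 a stage) with the stage mean (line), coloured by activators, canonical and atypical repressors. E2f2 falls furthest, from 110 and 163 to 0.917 and 0.728, while E2f5 and E2f6 stay within 3.0 to 4.44 at the postnatal stages.

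Among the activators, E2f2 had the largest fall of the family. The E18 samples had an RPKM of 110 and 163, the P14 samples 2.18 and 2.65, the P28 samples 1.40 and 1.54 and the adult samples 0.917 and 0.728. No stage overlapped another, and each was below the stage before it. From E18 to adult its level fell by 6.50 on the log2 scale (SE 0.25, edgeR adjusted p = 2.5e-08), a 90.7-fold lower level. Most of this lay before P14, with a log2 fold change of -4.97 (SE 0.23, edgeR adjusted p = 1.3e-07), and the later steps were -0.68 (edgeR adjusted p = 0.024) and -0.86 (edgeR adjusted p = 0.031). Both later calls rested on single libraries. The step from P14 to P28 was not called without P14 replicate 2 (-0.53) or P28 replicate 1 (-0.63), and the step from P28 to adult was not called without P28 replicate 2 (-0.80) or adult replicate 2 (-0.68).

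E2f1, the activator best known for S-phase entry, fell at every step. Its RPKM was 43.4 and 60.4 (E18), 5.84 and 5.19 (P14), 2.27 and 1.90 (P28) and 1.44 and 1.14 (adult), with no overlap between stages. The log2 fold change was -2.38 (SE 0.19) from E18 to P14, -1.36 (SE 0.19) from P14 to P28 and -0.72 (SE 0.20) from P28 to adult, with edgeR adjusted p of 4e-06, 0.00056 and 0.048. Over the whole interval it was 22.0-fold lower. The last step was not called without P28 replicate 1 (-0.57) or without adult replicate 2 (-0.54).

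E2f3, whose count sums the activator E2f3a and the shorter E2f3b made from the same gene, changed least among the activators. Its RPKM was 10.2 and 9.87 (E18), 3.18 and 3.47 (P14), 2.14 and 2.15 (P28) and 1.63 and 2.01 (adult). The E18 samples were highest and the stages did not overlap. From E18 to adult E2f3 fell by 1.59 on the log2 scale (SE 0.11, edgeR adjusted p = 1.1e-06), or 3.01-fold, close to the 3-fold limit. It fell by 0.74 to P14 and by 0.60 to P28 (edgeR adjusted p = 0.00022 and 0.0022), and its change of -0.25 from P28 to adult was not called (edgeR adjusted p = 0.17).

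Among the canonical repressors, E2f4 was the most abundant member in every sample. Its RPKM was 200 and 235 (E18), 18.0 and 15.3 (P14), 13.5 and 14.5 (P28) and 16.2 and 17.7 (adult). The 2 E18 samples stood apart, and the 6 postnatal samples lay between 13.5 and 18.0. E2f4 fell by 2.85 on the log2 scale from E18 to P14 (SE 0.12, edgeR adjusted p = 9.2e-08), and neither -0.21 from P14 to P28 nor 0.26 from P28 to adult was called (edgeR adjusted p = 0.17 and 0.18). Its share of the summed RPKM of the family was 46.1% and 43.2% at E18 and 48.7% and 43.6% in adult.

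E2f5, which like E2f4 binds pocket proteins, dipped after E18 and was not called over the whole interval. Its RPKM was 9.04 and 8.30 (E18), 3.20 and 3.0 (P14), 3.29 and 3.10 (P28) and 4.18 and 4.28 (adult). In TMM-scaled CPM (counts scaled to the library total) these were 10.7 and 10, 6.87 and 6.53, 7.37 and 6.80, and 9.28 and 9.22. In RPKM the adult samples lay nearer to P14 and P28 than to E18, whereas in CPM they lay nearer to E18. From E18 to P14 E2f5 fell by 0.63 on the log2 scale (SE 0.11, edgeR adjusted p = 0.00085), and from P28 to adult it rose by 0.38 (SE 0.11, edgeR adjusted p = 0.057). That call was lost when any of the 4 P28 and adult libraries was left out, with values of 0.33 to 0.44. The change from E18 to adult was -0.16 (SE 0.11, edgeR adjusted p = 0.21). With library size alone it was -1.01 and called, which is -0.06 relative to the median of all genes on that scale. Part of E2f5 is overlapped by 1810022K09Rik on the other strand, which had 100 to 200 reads a library.

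E2f6, the member that represses germline genes in somatic cells, was close to E2f5 in both level and course. Its RPKM was 11.5 and 9.57 (E18), 3.99 and 3.44 (P14), 3.47 and 4.06 (P28) and 4.44 and 4.42 (adult). The P14 and P28 samples overlapped. E2f6 fell by 0.64 on the log2 scale from E18 to P14 (SE 0.13, edgeR adjusted p = 0.0014) and by 0.38 from E18 to adult (SE 0.13, edgeR adjusted p = 0.022). The second value was -0.26 and not called without E18 replicate 1. It was -1.23 with library size alone, which is -0.28 relative to the median of all genes.

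Among the atypical repressors, E2f7 was the least abundant member in every sample. Its RPKM was 5.17 and 5.50 (E18), 0.501 and 0.588 (P14), 0.114 and 0.163 (P28) and 0.235 and 0.362 (adult). These rest on 2650 and 2544, 309 and 357, 64 and 80, and 95 and 162 reads. No stages overlapped, P28 was lowest, and both adult samples lay above both P28 samples and below both P14 samples. E2f7 fell by 2.43 on the log2 scale from E18 to P14 (SE 0.21, edgeR adjusted p = 5.9e-06) and by 1.95 from P14 to P28 (SE 0.23, edgeR adjusted p = 0.00021). It rose by 1.10 from P28 to adult (SE 0.24, edgeR adjusted p = 0.018), and this call was lost without P28 replicate 1 (0.87) or adult replicate 2 (0.77). From E18 to adult it was 9.75-fold lower. An antisense gene, 1700020G17Rik, overlaps E2f7 and had at most 2 reads in any library.

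E2f8 fell after E18, and its later stages overlapped. Its RPKM was 44.5 and 51.8 (E18), 5.30 and 3.52 (P14), 8.75 and 4.77 (P28) and 4.28 and 9.98 (adult). The E18 samples were highest, and each of the 3 later stages overlapped the next. E2f8 fell by 2.59 on the log2 scale from E18 to P14 (SE 0.41, edgeR adjusted p = 0.00035) and by 1.89 from E18 to adult (SE 0.39, edgeR adjusted p = 0.0018). The second value rested on the adult duplicates, with -2.60 without adult replicate 2 and -1.41 without adult replicate 1, both called. Its change of 0.66 from P14 to P28 (SE 0.39, edgeR adjusted p = 0.20) and of 0.05 from P28 to adult (SE 0.39, edgeR adjusted p = 0.96) were not called. With a sample left out the former lay between 0.13 (without P28 replicate 1) and 1.04 (without P28 replicate 2, where it was called), and the latter turned to -0.67 without adult replicate 2 and to -0.34 without P28 replicate 2.

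The gap between duplicates was widest for E2f8. In TMM-scaled CPM, adult replicate 2 was 2.26-fold above adult replicate 1, a gap wider than those of 99.6% of the genes tested, and P28 replicate 1 was 1.87-fold above P28 replicate 2, wider than 98.6%. These values rest on 1166 and 3013 reads in adult and 3306 and 1580 reads at P28, with a counting error of at most 2.93% in any postnatal library. E2f7 was also higher in adult replicate 2, by 1.47-fold, but at P28 it was higher in replicate 2, by 1.35-fold, where E2f8 was lower. The median log2 difference, adult replicate 2 against 1, was 0.01 over the 14 cytokinesis genes described below and -0.10 over the 40 E2F target genes. At P28, replicate 2 against 1, it was -0.36 and -0.23. What sets the duplicates apart was not tested.

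**Figure D2:**
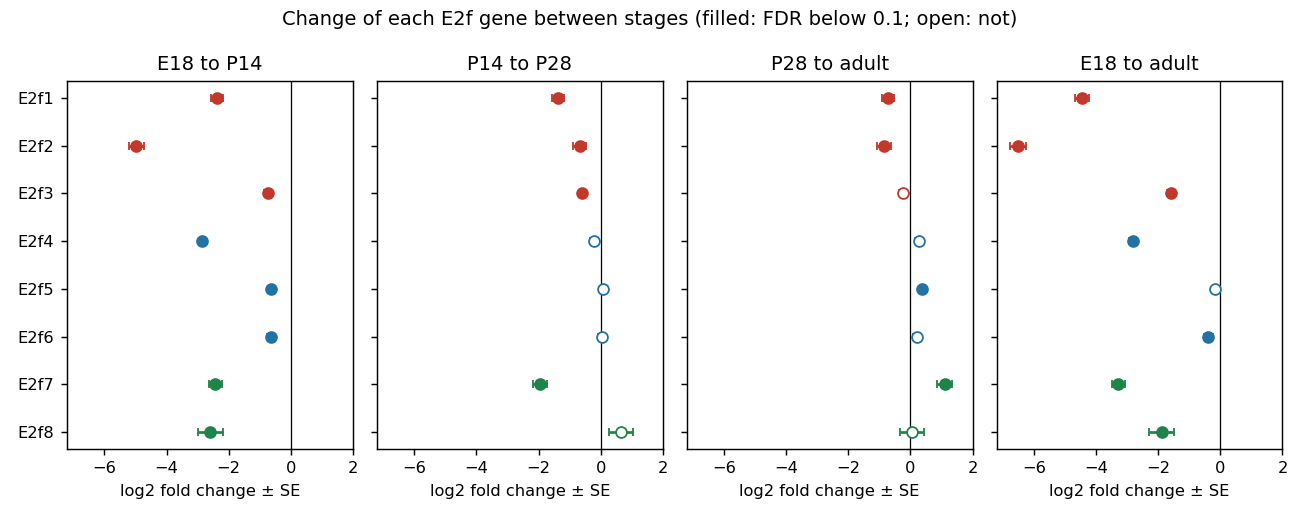
Log2 fold change of each E2f gene with its SE (edgeR) over E18 to P14, P14 to P28, P28 to adult and E18 to adult, filled where the adjusted p was below 0.1. All 8 points lie below 0 from E18 to P14, and of the 4 filled points from P28 to adult E2f1 and E2f2 are below 0 while E2f5 and E2f7 are above it.

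Step by step, the first interval carried the common change. From E18 to P14 all 8 members fell, where 39.3% of all genes tested were called lower and 38.2% higher. Of the 8, 5 fell over 3-fold, and the share of all genes over 3-fold was not counted for this interval. From P14 to P28, 4 members fell (E2f1, E2f2, E2f3 and E2f7) and 4 were not called, beside 28.6% lower and 25.2% higher among all genes. From P28 to adult, E2f1 and E2f2 fell, E2f5 and E2f7 rose and 4 were not called, beside 13.2% lower and 7.94% higher. The member medians were -2.41, -0.41 and 0.13, beside -0.03, -0.05 and 0.00 over all genes tested.

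The order of the levels changed from an order led by E2f4 and E2f2 to one led by E2f4 and E2f8. At E18 the mean RPKM ran from E2f4 (217 ± 24.5, SD, n = 2) through E2f2 (136 ± 37.2), E2f1 (51.9 ± 12.0), E2f8 (48.1 ± 5.16), E2f6 (10.5 ± 1.37), E2f3 (10 ± 0.234) and E2f5 (8.67 ± 0.523) to E2f7 (5.33 ± 0.229). E2f1 and E2f8 overlapped there, and so did E2f6 and E2f3. At P14 E2f4 (16.6 ± 1.94) led, E2f2 (2.41 ± 0.331) and E2f7 (0.544 ± 0.0618) were last, and the neighbours from E2f1 (5.52) through E2f8 (4.41), E2f6 (3.72) and E2f3 (3.33) to E2f5 (3.10) overlapped each in turn. At P28 it ran from E2f4 (14.0 ± 0.717) through E2f8 (6.76 ± 2.81), E2f6 (3.76), E2f5 (3.19), E2f3 (2.14), E2f1 (2.09) and E2f2 (1.47) to E2f7 (0.139 ± 0.0344), and only E2f3 and E2f1 overlapped among the neighbours. In adult the order was E2f4 (17 ± 1.05), E2f8 (7.13 ± 4.03), E2f6 (4.43 ± 0.0146), E2f5 (4.23 ± 0.0680), E2f3 (1.82 ± 0.268), E2f1 (1.29 ± 0.215), E2f2 (0.823 ± 0.134) and E2f7 (0.298 ± 0.0896). Only E2f8 and E2f6 overlapped among these neighbours. E2f2 thus went from rank 2 at E18 to rank 7 in adult.

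**Figure D3:**
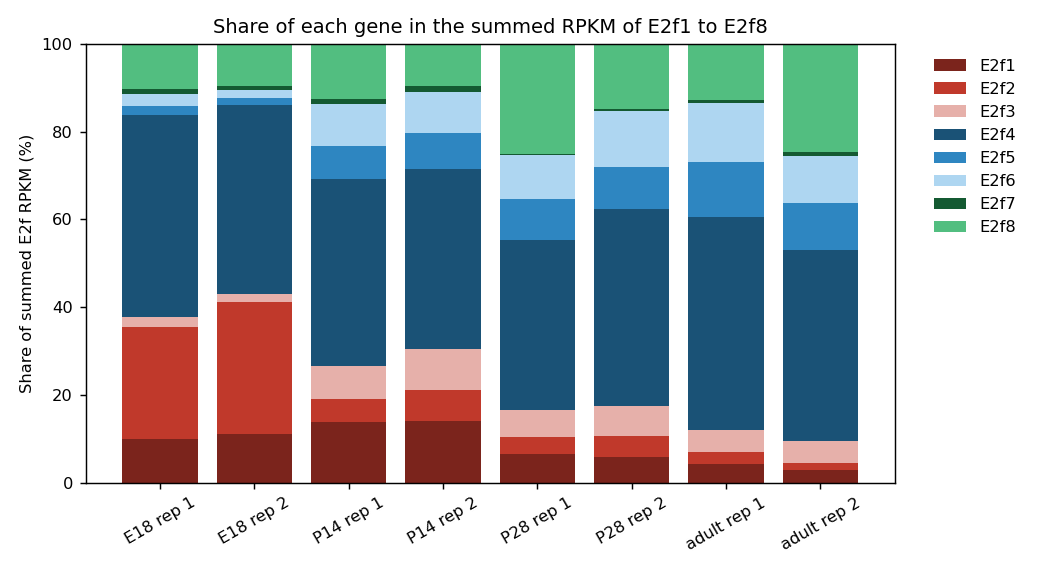
Share of each E2f gene (%) in the summed RPKM of the 8 genes, for each of the 8 samples as a stacked bar. The E2f2 share is 25.4% and 30% at E18 and 2.75% and 1.79% in adult, while the E2f4 share stays between 38.6% and 48.7%.

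As shares of the summed family RPKM, E2f4 held 38.6% to 48.7% in all 8 samples. The E2f2 share was 25.4% and 30% (E18), 5.17% and 7.14% (P14), 4% and 4.80% (P28) and 2.75% and 1.79% (adult). The E2f1 share was 10% and 11.1% (E18), 13.8% and 14.0% (P14), 6.50% and 5.92% (P28) and 4.32% and 2.80% (adult). E2f5 and E2f6, the members that changed least, went from 2.08% and 1.53% to 12.5% and 10.5%, and from 2.65% and 1.76% to 13.3% and 10.9%. The E2f8 share was 10.3% and 9.54% at E18, and 25.1% and 14.8% at P28 against 12.8% and 24.6% in adult.

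Ratios within a sample do not depend on the scaling between samples, and 3 were compared over the 4 stages with an exact permutation test of the F statistic (2520 assignments, smallest possible p 0.00952), adjusted over the 3. Activators (E2f1 to E2f3) over canonical repressors (E2f4 to E2f6) were 0.743 and 0.923 (E18), 0.445 and 0.521 (P14), 0.287 and 0.258 (P28) and 0.161 and 0.147 (adult). The ratio was lower at each stage with no overlap. The adult mean was -2.43 from E18 on the log2 scale (exact permutation p = 0.00952, the smallest it can give, adjusted p = 0.0286). At E18 E2f2 alone held 110 and 163 of the activator RPKM of 164 and 233, and at P14 it held 2.18 and 2.65 of 11.2 and 11.3. E2f1 (43.4 and 60.4) and E2f3 (10.2 and 9.87) stood beside a canonical repressor RPKM of 220 and 252 at E18. At P14 E2f1 (5.84 and 5.19) and E2f3 (3.18 and 3.47) stood beside 25.2 and 21.7. Without E2f2 the activators were thus lower against the canonical repressors at E18 than at P14. The first step of this ratio therefore depends on E2f2, and the ratio without E2f2 was not tested. Atypical repressors (E2f7 and E2f8) over activators were 0.303 and 0.246 (E18), 0.517 and 0.364 (P14), 1.53 and 0.882 (P28) and 1.13 and 2.67 (adult). Both E18 samples were below all others, and P28 and adult overlapped. The denominator at E18 was mostly E2f2. The numerators were 49.6 and 57.3 at E18 and 5.8 and 4.11 at P14. Set over E2f1 and E2f3 only, both E18 samples lay above both P14 samples. This ratio was not tested without E2f2 either. The adult mean was 2.67 above E18 on the log2 scale (exact permutation p = 0.0381, adjusted p = 0.0381). In the numerator E2f8 held nearly all of the RPKM, and the p rose above 0.05 when any of E18 replicate 1, E18 replicate 2, P14 replicate 1, P14 replicate 2 or P28 replicate 2 was left out (0.0571 to 0.105).

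E2f8 over E2f7 was 8.60 and 9.42 (E18), 10.6 and 5.99 (P14), 76.6 and 29.3 (P28) and 18.2 and 27.6 (adult). The 4 P28 and adult samples were above the 4 earlier samples. The adult mean was 1.32 above E18 on the log2 scale (exact permutation p = 0.0381, adjusted p = 0.0381). This p also rose above 0.05 without E18 replicate 1, E18 replicate 2, P28 replicate 1, adult replicate 1 or adult replicate 2 (0.0667 to 0.114).

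**Figure D4:**
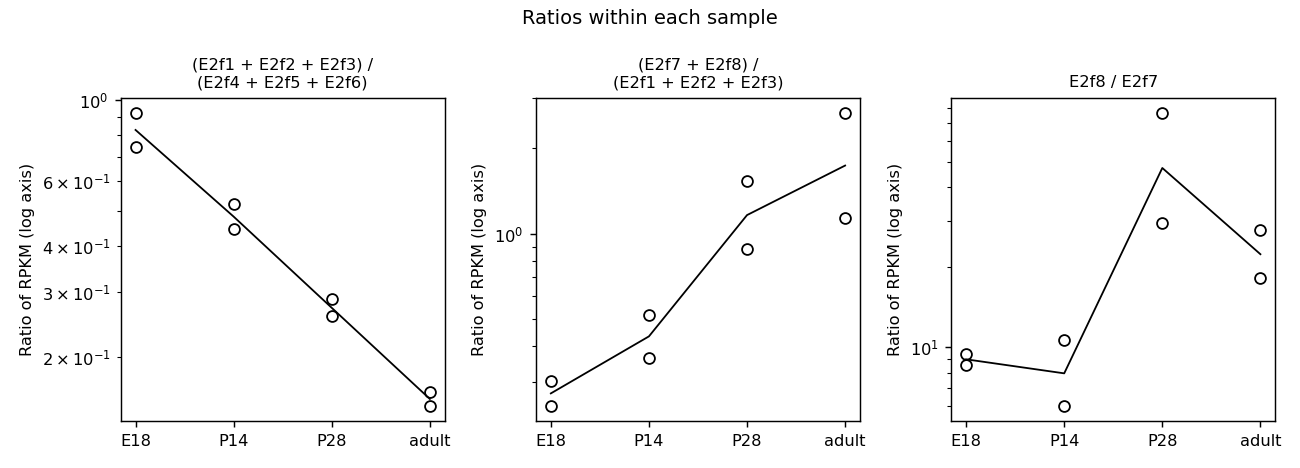
Ratios of RPKM within each sample (log axes), activators over canonical repressors, atypical repressors over activators, and E2f8 over E2f7, with circles for the 8 samples and a line through the stage geometric means. The first ratio declines from 0.743 and 0.923 at E18 to 0.161 and 0.147 in adult, and the third is highest at P28, at 76.6 and 29.3.

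The partners of the family did not all move together. Both DP partners fell from E18 to adult, Tfdp1 from 33.4 ± 0.577 to 8.0 ± 1.01 CPM (log2 fold change -2.06, SE 0.12, edgeR adjusted p = 2.9e-07) and Tfdp2 from 233 ± 55.6 to 29.0 ± 0.151 CPM (-3.00, SE 0.16, edgeR adjusted p = 1.7e-07, both as mean ± SD, n = 2). Of the pocket proteins, Rb1 had a CPM of 68.3 and 75.3 (E18), 5.61 and 6.17 (P14), 9.80 and 7.97 (P28) and 7.60 and 10.2 (adult). Rb1 fell by 3.61 on the log2 scale from E18 to P14 and was 8.05-fold lower in adult than at E18 (edgeR adjusted p = 2e-07). Rbl1, the p107 gene and itself a textbook E2F target, had means of 60.0, 16.2, 9.78 and 4.46 CPM over the 4 stages, and was 13.5-fold lower in adult (edgeR adjusted p = 7.5e-09).

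Rbl2, the p130 gene of resting cells and the partner of E2F4 in quiescence, went the other way. It had a CPM of 18.5 and 17.6 (E18), 24.9 and 32.4 (P14), 64.0 and 59.1 (P28) and 76.5 and 78.1 (adult), with no overlap between stages. The rise from E18 to adult was 2.10 on the log2 scale (SE 0.13, edgeR adjusted p = 4.1e-07), and 1.25 with library size alone. The step from E18 to P14, a rise of 0.67 (edgeR adjusted p = 0.00099), was -0.20 and not called with library size alone. The median of all genes for that step was -0.9 on that scale. Rb1 and Rbl2 each overlap other listed genes (Rcbtb2, Lpar6 and Mir687, and Aktip), and whether the counting used strand is not stated.

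Of 7 genes of the MuvB core and its partners, which form the DREAM complex with E2F4 and p130 in resting cells and drive mitotic genes with Mybl2 and Foxm1 in cycling cells, 5 fell from E18 to adult while Lin52 and Rbbp4 were not called. Of these, 4 fell over 3-fold, namely the cycling partners Mybl2, from 66.1 to 0.321 CPM (log2 fold change -7.68), and Foxm1, from 69.6 to 0.719 CPM (-6.60), and the core subunits Lin9 (-2.05) and Lin54 (-1.66), while Lin37 was at -0.37. Of 13 genes of the E2F6 complex, 10 fell, Ring1 and Yaf2 rose and Pcgf6 was not called, with a median of -0.48, and 1 gene, Cbx3 (-1.98), fell over 3-fold. Beside both lists, the shares of all genes tested were 43.8% lower, 23.8% lower over 3-fold and 39.5% higher. The rises of Ring1 (0.95) and Yaf2 (0.70) were not called with library size alone. They were 0.10 and -0.15 there, above the median of all genes on that scale, -0.95. Of 9 germline genes known as E2F6 targets only 4 passed the filter, with Stag3 lower (7.93 to 0.395 CPM) and Slc25a31 not called. Ddx4 was lower (47 and 49 reads at E18, 0 in both adult samples). With a mean of 0.37 CPM at E18 and at most 0.0195 CPM later, Ddx4 passed the filter through E18. It could therefore only be called lower. Smc1b was at 0.166 CPM at E18 and 0.319 CPM in adult (edgeR adjusted p = 0.089), a call that library size alone and DESeq2 did not give.

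Of 15 cyclins, kinases and inhibitors upstream of the pocket proteins, 11 fell from E18 to adult and 4 were not called (Ccnd1, Cdkn2a, Cdkn2b and Cdkn2d), with a median of -2.14. Among all genes tested, 43.8% were called lower. With library size alone 14 of the 15 were lower, but the median of all genes was -0.95 on that scale. The 43.8% is a share after TMM and does not apply there. Ccne1, the cyclin E gene and an E2F target, had means of 139, 15.9, 4.17 and 4.41 CPM over the 4 stages (log2 fold change from E18 to adult -4.98, edgeR adjusted p = 2.3e-07). Cdkn1c, a fetal kinase inhibitor, went from 236 to 2.60 CPM (-6.51). Cdkn1a, the p21 inhibitor, rose from 19.9 ± 7.42 to 99.2 ± 24.0 CPM between E18 and P14 (2.32, SE 0.36, edgeR adjusted p = 0.00031) and was 1.79 ± 0.321 CPM in adult (SD, n = 2), and the rise was 1.44 with library size alone.

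Most of a list of 40 E2F target genes, of DNA replication, nucleotide synthesis and S phase, fell along with the family. From E18 to adult 38 fell, 36 of them over 3-fold, with a median of -4.70, and 1 was higher. Among all genes tested, 43.8% were lower, 23.8% lower over 3-fold and 39.5% higher. By step, 37, 39 and 26 of the list were lower and 2, none and 13 were not called, with medians of -2.24, -1.53 and -0.77. The shares of all genes called lower by step were 39.3%, 28.6% and 13.2%. The largest falls were in Uhrf1, which guides maintenance of DNA methylation (89.9 to 0.168 CPM), and in the replicative helicase genes Mcm6 (262 to 0.748 CPM) and Mcm5 (317 to 2.10 CPM).

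Mcm10, a replication initiation factor, was the exception that rose. It had a CPM of 69.5 and 73.9 (E18), 27.4 and 28.6 (P14), 143 and 162 (P28) and 299 and 335 (adult), with no overlap between stages. It fell by 1.36 on the log2 scale to P14 and then rose at both steps, to 2.14 above E18 (SE 0.11, edgeR adjusted p = 1.1e-07), and the rise was 1.30 with library size alone. GENCODE on GRCm38 lists no gene that overlaps Mcm10, but the gene model the counts were made with was not used here, and whether reads of another transcript enter this count was not tested.

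All 14 genes of a cytokinesis list, the class that atypical E2Fs are known to repress in liver, fell in every one of the 4 comparisons, with a median of -6.49 from E18 to adult. By step the medians of the list were -2.56, -1.81 and -2.56. Among all genes tested, 43.8% were called lower from E18 to adult, and 39.3%, 28.6% and 13.2% by step. The largest falls from E18 to adult were in Prc1, the midzone bundling protein (100 to 0.267 CPM), Plk1, a mitotic kinase (45.9 to 0.153 CPM), and Anln, the anillin gene (82.3 to 0.292 CPM). From P28 to adult, when E2f8 was not called, E2f7 rose from 0.960 to 2.04 CPM and E2f1 fell from 6.51 to 3.98 CPM, 10 of the 14 fell over 3-fold, among them Anln from 3.07 to 0.292 CPM. These values are set side by side, and no link between them was tested. For all genes, the share over 3-fold was not counted from P28 to adult.

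**Figure D5:**
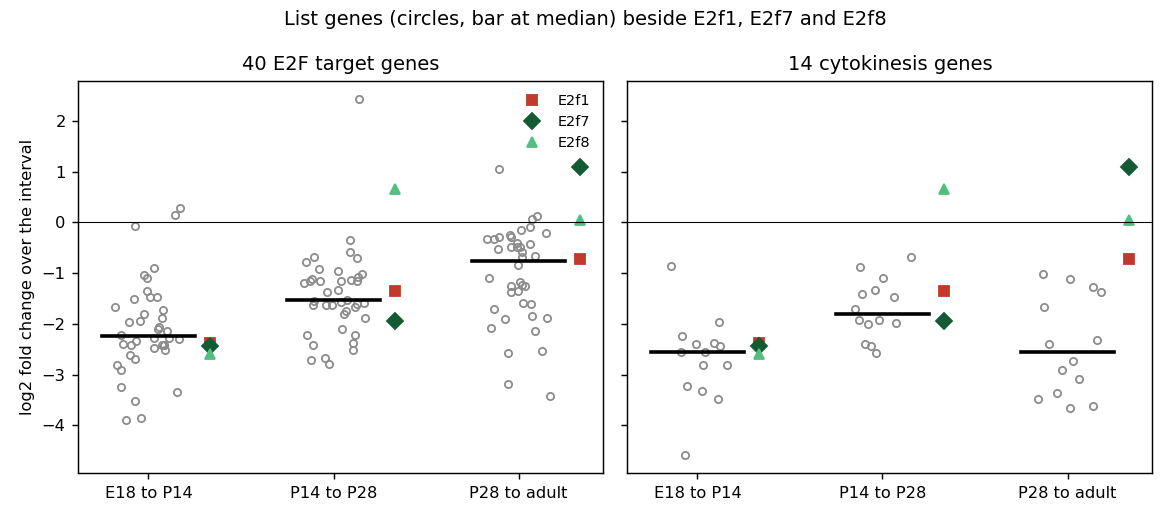
Log2 fold change (edgeR) over each of the 3 intervals for 40 E2F target genes and 14 cytokinesis genes (grey circles, black bar at the list median), with E2f1, E2f7 and E2f8 beside them. The cytokinesis median is -2.56, -1.81 and -2.56 and all circles lie below 0, while E2f7 is at 1.10 and E2f8 at 0.05 from P28 to adult.

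Markers of cell types also changed between the stages, in differing directions. From E18 to adult, 43.8% of all genes tested were called lower and 39.5% higher. In whole liver, fewer cells of a type and less RNA per cell cannot be told apart. All 11 erythroid markers found fell from E18 to adult (12 were listed, with Ahsp not matched), but Hbb-b1 and Hbb-b2 differed by at most 6 reads in any sample, so that the same reads appear to be counted for both. Without Hbb-b2 the summed RPKM of the other 10 was 9640 and 12200 at E18 and between 41.5 and 60.8 in the 6 later samples. Rhag was at 0 in P28 replicate 2 and Epb4.2 at 0 in adult replicate 1. All 8 myeloid markers fell, with a sum of 756 and 851 at E18, 66.0 to 68.8 at P14 and 0.381 to 1.88 later, and Ngp, Camp, Ctsg and Ms4a3 were at 0 in both adult samples. All 5 megakaryocyte markers fell as well (273 and 370 to 2.84 and 2.67). All 12 hepatocyte markers rose, with sums of 46100 and 45100 at E18, 96900 to 131000 at P14 and P28, and 66200 to 79300 in adult, though with library size alone 10 rose and 1 fell. The part of these cells in the changes of the E2f genes was not tested.

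All 4 hepatoblast markers fell from E18 to adult. Their summed RPKM was 32100 and 25900 at E18, 2880 and 6380 at P14 and 2.25 to 4.26 in P28 and adult. The P14 sum was mostly H19 (mean RPKM 5450 at E18 and 4280 at P14). By P14 Afp had gone from a mean RPKM of 22100 to 55.0 and Dlk1 from 395 to 0.272. From E18 to P14, 2 of the 4 markers were called lower and 2 were not called. For the remaining cell types the E18 to adult calls were mixed, with 4 of 6 lymphoid, 3 of 5 cholangiocyte, 4 of 6 macrophage, 4 of 5 endothelial and 3 of 5 stellate markers lower, and 1, 1, 2, 1 and 2 higher.

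The genes with profiles nearest to each member were found by the root mean square difference of log2 CPM, centred over the 8 samples. E2f1 was nearest to Cenpk (0.15), a centromere gene, Parvb (0.16) and Lmnb1 (0.16), the last of which is in the target list. E2f2 was nearest to Kctd14 (0.21), Lyl1 (0.22), a blood cell transcription factor, and Specc1 (0.27). E2f4 was nearest to Agfg1 (0.11), Bag2 (0.12) and Tmod1 (0.12), the red cell tropomodulin.

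E2f3 was nearest to Mir3971 (0.05), which lies within Slc43a2, Abr (0.07) and Mical1 (0.09). E2f5 had Crkl (0.06), Braf (0.07) and Pik3cb (0.07), and E2f6 had Fv1 (0.05), Dusp7 (0.07) and Prmt7 (0.08), and the difference between E2f5 and E2f6 themselves was 0.12. The atypical members had no profile so near, with Fbxo16 (0.26), Pgbd5 (0.28) and Gapt (0.29) for E2f7 and Dlgap2 (0.24), Trim56 (0.26) and Hsd3b6 (0.27) for E2f8. The activator E2f2, with 0.21 to 0.27, had none so near either. E2f7 and E2f8 lay 1.12 apart, further than E2f8 and E2f4 (0.57) or E2f7 and E2f4 (0.67). These are descriptions over 8 samples of 4 stages that share the same libraries.

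The members lie apart in the genome. On GRCm38 (GENCODE M21), which is not the build of the files, E2f1 spans 154559407 to 154569892 of chromosome 2, E2f2 136172394 to 136196057 of chromosome 4, E2f3 29906575 to 29986063 of chromosome 13 and E2f4 105297663 to 105305370 of chromosome 8. E2f5 spans 14578641 to 14606309 of chromosome 3, E2f6 16810963 to 16839742 of chromosome 12, E2f7 110745439 to 110787384 of chromosome 10 and E2f8 48866429 to 48881596 of chromosome 7. E2f1, E2f3 and E2f8 are on the minus strand. E2f1, E2f2, E2f4 and E2f6 overlap no other annotated gene.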

How the data were processed

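Poly(A) RNA of whole liver was sequenced as 100-base read pairs, and the authors deposited, for each sample, a read count and an RPKM for every gene symbol. The count is the number of reads the authors assigned to a gene, without normalization, and the RPKM was computed by the authors from it, by transcript length and mapped reads. The submitters' processing notes name build mm9, and the aligner and the strand setting are not given in the sources used here. The labels name Trizol and the methods RNeasy for RNA isolation. Stages and replicate numbers were read from the labels.

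Counts of all 8 samples were filtered with filterByExpr, scaled by TMM and compared between stages with the quasi-likelihood test of edgeR (version 4.0.16, R version 4.3.3), with Benjamini-Hochberg adjustment over the 17081 genes tested and a call at a false discovery rate below 0.1, the threshold of the study, which used DESeq. The SE was taken as the log2 fold change over the root of the F statistic. Within-sample ratios of RPKM were compared by exact permutation tests (numpy version 2.4.6). DESeq2 (version 1.42.0), limma (version 3.58.1) on log2(RPKM + 0.1), other scalings, filters and thresholds, a replicate block and each sample left out were tried. Between duplicates the squared differences were 49.2 to 93.7 times those of sampling noise (chi-square per degree of freedom, pooled over genes). This pooled value need not describe a single gene. Duplicates thus differed by more than sampling noise, and none was counted as a repeat of another. The scripts were tested on simulated data. Text names all 8 members, every DP partner and pocket protein, of each other list up to 3 genes with the largest called change from E18 to adult in each direction, and the 3 nearest profiles of each member. Genes outside this rule (such as Lin37, Lin52, Lin54, Rbbp4, Pcgf6, Slc25a31 and those listed as not called or at 0) were named after their values were seen. The members and gene lists were chosen with earlier results of these data known. Promoter windows came from RefSeq on GRCm38.p6. No coordinate was converted between builds. Splicing and isoforms were not analysed here.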

Additional observations from a re-analysis of the deposited data

How the results depend on the processing

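Of the values for single members under all alternatives, 517 kept both their direction and their side of the threshold, 14 lost a call, 9 gained one and 4 changed sign. The sign changes were in changes that were not called: E2f6 from P14 to P28 was -0.05 without P14 replicate 2 and -0.05 without P28 replicate 2 (range with a sample left out -0.05 to 0.15), and E2f8 from P28 to adult was -0.34 without P28 replicate 2 and -0.67 without adult replicate 2 (range -0.67 to 0.57). With a change over 3-fold required as well, 5 members in place of 8 were called from E18 to P14, 1 in place of 4 from P14 to P28, and 0 in place of 4 from P28 to adult, where no member passed 3-fold in edgeR at an unadjusted p below 0.05 (0 of 8) or in DESeq2 (0 of 8). With a sample left out, 0 to 4 members were called from P28 to adult. The count was 0 without adult replicate 2 (4 at an unadjusted p below 0.05, edgeR), 1 without P28 replicate 1 and 2 without P28 replicate 2. The adult minus E18 difference of the atypical to activator ratio was then between 2.05 and 3.29, with p between 0.00952 and 0.105, and that of the E2f8 to E2f7 ratio between 1.02 and 1.62, with p between 0.0286 and 0.114. Why single libraries decide these calls was not tested.

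E2f5 from E18 to adult was called with at least 10 counts in every sample (-0.30), with library size alone (-1.01) and with limma (-1.02), where the median of all genes was -0.04, -0.95 and -0.78. Replicate numbers did not pair the samples, since deviations of same-numbered samples correlated between -0.107 and 0.0841 over the 6 pairs of stages. With the replicate block, 7, 8, 4 and 4 members were called from E18 to adult, E18 to P14, P14 to P28 and P28 to adult, as without it. Depth limits E2f7 most, with 64 and 80 reads at P28.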
